A study of Homo sapiens with 4 samples.

Results

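The olfactory receptor (OR) genes of chromosome 11 belong to the neurons of the nose, and MTF-1 peaks at their transcription start sites (TSS) were counted in breast cancer cells to see how often a gene held to be silent there is called. Members were all protein-coding genes of chromosome 11 in GENCODE 44 with a symbol of the OR family, that is, OR followed by a family number, letters and a gene number. This gave 178 of the 1317 coding genes of the chromosome, and the other 1139 coding genes served as the comparison. Of the members, 6 carry symbols that end in P (OR51C1P, OR56B2P, OR5D3P, OR5AK3P, OR8G3P and OR8G2P) but are annotated as coding, and they were kept.

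MTF-1 was profiled by CUT&RUN, in which an antibody tethers a nuclease to a protein on the DNA and the released fragments are sequenced, in MDA-MB-231, an established breast cancer cell line. Control cells received no treatment, and cadmium cells were passaged in CdSO4, first at 5 µM and then at 10 µM. There were 2 libraries per condition, which the authors merged before peak calling, so each condition is 1 peak list with no heights and no replicate spread. The lists held 3814 control and 2866 cadmium peaks on chromosome 11, the depth of the libraries is unknown from them, and no control library for the peak calling is named. Expression was not measured in these lists, so that the OR genes are silent in this line is background knowledge here and not a result. The study also made RNA-seq and ATAC-seq data of control and cadmium cells, which were not used here. Intervals below are 95% Wilson intervals that cover counting error only, and since neighboring genes share peaks they are not independent. With 1 list per condition no difference between conditions or gene lists was tested.

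OR genes encode G protein-coupled receptors of the olfactory sensory neurons in the nose. Each neuron transcribes a single allele of a single OR gene, and the other OR genes are kept in compact heterochromatin. The genes lie in long tandem clusters together with many pseudogenes, and they fall into class I, which resembles the receptors of fish, and class II, which makes up most of the mammalian repertoire. MTF-1, a zinc finger protein, responds to zinc and other metals and binds metal response elements (MREs), best known upstream of the metallothionein genes.

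A gene was counted as having a TSS peak when any base of a peak lay within 1 kb of any annotated start of its transcripts. In the control list 4 of the 178 OR genes had one, 2.25% (0.877 to 5.63). In the cadmium list 2 did, 1.12% (0.309 to 4). Of the other coding genes of the chromosome 76.5% (73.9 to 78.8) had a TSS peak in the control list and 72.7% (70 to 75.2) in the cadmium list, 871 and 828 genes. Between conditions, 2 OR genes were called in both lists, 2 in the control list alone, 1.12% of the members, and 0 in the cadmium list alone. The same classes held 809, 62 and 19 of the other coding genes, so that 5.44% were in the control list alone and 1.67% in the cadmium list alone. With 4 called members, the control and cadmium counts cannot be told apart by their intervals. The remaining 174 OR genes had no TSS peak in either list.

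**Figure D1:**
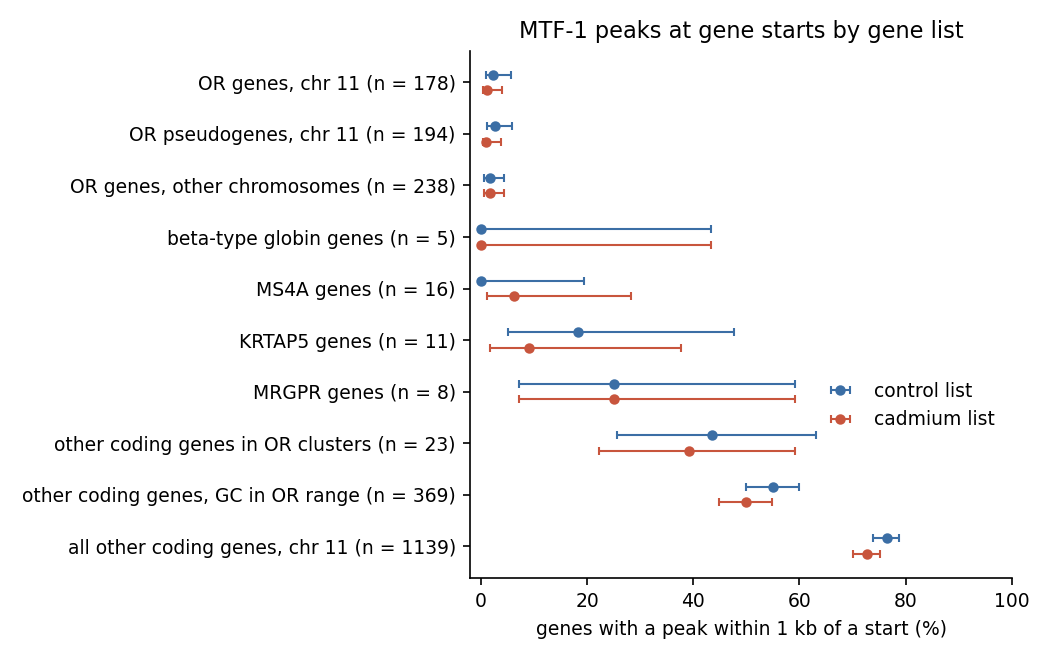
Share of genes with an MTF-1 peak within 1 kb of a start (x axis, percent) for the OR genes of chromosome 11 and 9 other gene lists (y axis); points are shares in the control (blue) and cadmium (red) lists and bars are 95% Wilson intervals. The OR genes lie at 2.25% and 1.12%, beside the OR pseudogenes at 2.58% and 1.03%, and all other coding genes lie at 76.5% and 72.7%.

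The 4 OR genes with a TSS peak were OR52N2, OR9Q1, OR9Q2 and OR8B8. To show what sequence lies at these starts, the 300 bases from 250 before to 50 after the start are given. For OR52N2, OR9Q1, OR9Q2 and OR4C13, the member farthest from any peak, they are the entries of the RefSeq promoter table (GRCh38.p14). The RefSeq entry of OR8B8 is at its canonical start, which had no peak, so its other start, under the peak, is shown instead, read from hg38. All are written 5′ to 3′ on the strand of the gene. Capitals mark TAATTA, a homeodomain core, in OR9Q2 and OR4C13, and GGGCGCA, an MRE core read on the opposite strand, in OR8B8.
OR52N2, chr11:5808674-5808973, plus strand: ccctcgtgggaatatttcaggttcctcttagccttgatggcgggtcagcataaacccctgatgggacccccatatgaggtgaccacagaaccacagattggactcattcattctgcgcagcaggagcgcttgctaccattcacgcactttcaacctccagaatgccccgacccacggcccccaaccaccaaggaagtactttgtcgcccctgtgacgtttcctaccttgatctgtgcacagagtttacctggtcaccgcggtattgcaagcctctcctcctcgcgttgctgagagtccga
OR9Q1, chr11:58023631-58023930, plus strand: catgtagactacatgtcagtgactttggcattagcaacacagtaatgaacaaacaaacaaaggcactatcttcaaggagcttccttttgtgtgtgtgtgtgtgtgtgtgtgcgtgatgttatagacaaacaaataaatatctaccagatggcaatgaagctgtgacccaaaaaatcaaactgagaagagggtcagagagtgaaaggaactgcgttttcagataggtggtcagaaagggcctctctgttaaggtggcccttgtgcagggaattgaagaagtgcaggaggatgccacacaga
OR9Q2, chr11:58188820-58189119, plus strand: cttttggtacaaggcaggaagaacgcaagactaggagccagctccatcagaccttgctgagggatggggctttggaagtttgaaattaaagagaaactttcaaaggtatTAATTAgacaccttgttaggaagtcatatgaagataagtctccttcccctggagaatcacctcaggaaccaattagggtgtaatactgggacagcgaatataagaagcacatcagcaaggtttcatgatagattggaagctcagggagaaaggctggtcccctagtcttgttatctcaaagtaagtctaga
OR8B8, chr11:124441109-124441408, minus strand: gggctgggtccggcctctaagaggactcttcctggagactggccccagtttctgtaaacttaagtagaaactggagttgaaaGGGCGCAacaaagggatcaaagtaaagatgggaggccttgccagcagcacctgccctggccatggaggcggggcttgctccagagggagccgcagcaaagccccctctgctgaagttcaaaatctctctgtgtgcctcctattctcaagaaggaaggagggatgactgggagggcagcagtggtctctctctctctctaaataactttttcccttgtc
OR4C13, chr11:49952141-49952440, plus strand: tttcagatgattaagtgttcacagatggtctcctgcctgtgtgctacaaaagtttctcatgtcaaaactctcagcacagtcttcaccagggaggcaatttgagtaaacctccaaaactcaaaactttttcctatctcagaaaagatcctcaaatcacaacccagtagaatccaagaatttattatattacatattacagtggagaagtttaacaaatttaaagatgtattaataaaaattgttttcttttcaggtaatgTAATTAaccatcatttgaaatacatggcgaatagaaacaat

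OR52N2, a class I receptor gene at chr11:5808924-5821483 on the plus strand, had its start inside a peak in both lists. The control peak spanned chr11:5808401-5810199, 1799 bp, and the cadmium peak chr11:5808401-5809199, 799 bp, with the same left edge. The start is the beginning of a noncoding first exon, 11412 bp before the coding sequence. The nearest start of a gene outside the OR family, one of TRIM5, was 63434 bp away. Both peaks also lie within the annotated extent of TRIM5. The printed promoter of OR52N2 held 14 CpG dinucleotides, the most of the 133 OR promoters in the table, against 6 in the next one (OR51S1). Its GC content of 55.3% ranked second. The other called genes did not share this, with 2 CpG each in the entries of OR9Q1 and OR9Q2 and 1 in that of OR8B8.

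OR9Q1, a class II gene at chr11:58023881-58181616 on the plus strand, had a 1199 bp control peak that began 120 bp after its first start, at chr11:58024001-58025199. The cadmium peak was a piece of the same interval, chr11:58024601-58024999, 399 bp wide and 720 bp from the start. This start lies 155564 bp before the coding sequence, and a second start at chr11:58179431, nearer to it, had no peak within 1 kb in either list.

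OR9Q2, the next receptor gene, at chr11:58189070-58194053 on the plus strand, had its start inside a 3199 bp control peak, chr11:58188201-58191399. No cadmium peak shared a base with it, and the nearest cadmium peak lay 126671 bp from the start. OR8B8, at chr11:124437445-124445696 on the minus strand, was called through a second, noncanonical start at chr11:124441158, inside a 2599 bp control peak at chr11:124439001-124441599. Its canonical start was 4097 bp from that peak. Its nearest cadmium peak was 156505 bp away. OR9Q2 and OR8B8 were thus the members called in the control list alone, and both of their control peaks were wider than the peaks of OR52N2 and OR9Q1 in the same list.

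The annotated start of an OR gene is often not a promoter measured as such. In 84 of the 178 OR genes (47.2%) the start of the canonical transcript was the first base of the coding sequence, against 18 of the other coding genes (1.58%). The median distance from start to coding sequence was 40.5 bp for OR genes and 214 bp for the others. No gene of those 84 was called in either list, nor any of the 24 whose start lay 1 to 1000 bp before the coding sequence. All 4 control and both cadmium calls fell among the 70 OR genes with a canonical start over 1000 bp before the coding sequence. OR8B8 is in that group by its canonical start alone, since the start that was called lay 73 bp before the coding sequence. Calls of the other coding genes, 337 of which have a start over 1000 bp away, were not split in this way. Whether the distance goes with the calls was not tested. For genes whose annotation lacks the true start, a peak there would be missed by a count within 1 kb, and so distances to farther peaks and peaks in whole clusters were also taken.

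A gene with more annotated starts has more windows in which a peak can fall, and OR genes have few. With 1 annotated start there were 141 OR genes, of which 2 (1.42%) had a control and 1 (0.709%) a cadmium TSS peak. The 151 other coding genes with 1 start had 59 (39.1%) and 54 (35.8%). The remaining 37 OR genes, with 2 or 3 starts, had 2 and 1.

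The median OR start lay 76604 bp from the nearest control peak and 85572 bp from the nearest cadmium peak. The quartiles of the OR genes ran from 31758 to 210521 bp in control and from 36999 to 235204 bp in cadmium. For the other coding genes the median was 0 bp in both lists, with upper quartiles of 391 and 1945 bp. Within 5 kb 7 OR genes (3.93%) had a peak in each list, within 20 kb 16.3% and 14%, and within 100 kb 57.3% and 53.9%. At 100 kb the other coding genes had reached 96.6% and 95.9%. The shares of OR genes thus stayed under those of the other coding genes at every distance counted, up to 100 kb.

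**Figure D2:**
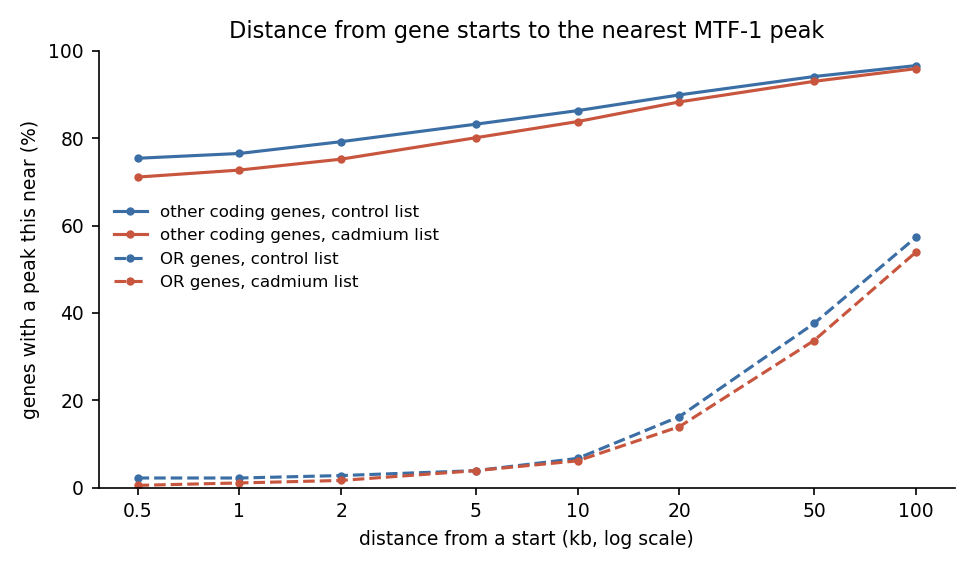
Share of genes (y axis, percent) with a peak within a given distance of a start (x axis, kb, log scale); dashed lines are the 178 OR genes, solid lines the other 1139 coding genes, blue the control and red the cadmium list. OR genes rise from 2.25% and 0.562% at 0.5 kb to 57.3% and 53.9% at 100 kb, while the other coding genes start at 75.4% and 71.1%.

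A few OR genes lay beyond 1 kb but within 5 kb of a peak in at least 1 list. OR9G1 was 1306 bp from a 399 bp cadmium peak at chr11:56700401-56700799, inside the gene, and 74096 bp from the nearest control peak. OR52H1 was 1461 bp from a control and 2061 bp from a cadmium peak, and OR2D3 was 4599 bp from a peak in both lists. OR8B3 was 2777 bp from a control peak, with the nearest cadmium peak at 203177 bp. OR10A6 was the reverse, 23869 bp in control and 3269 bp in cadmium, and OR2AT4 was at 6525 and 3525 bp. At 2 kb the counts became 5 control and 3 cadmium genes, and at 5 kb 7 in each, so that the excess of control calls at 1 kb was no longer there at 5 kb.

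Peaks anywhere between the ends of a gene were also counted, since the coding exon of an OR gene is short. In each list 6 OR genes (3.37%, 1.55 to 7.16) had such a peak, against 82.2% of the other coding genes in control and 79.5% in cadmium. These shares were not matched for gene length, and a longer gene has more room for a peak. OR52K1, OR51B5, OR52N2 and OR9Q1 had one in both lists. OR9Q2 and OR8B8 had one in the control list alone, and OR10A6 and OR9G1 in the cadmium list alone.

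Around the starts, OR genes showed no summit of peak cover. Taking 1 canonical start per gene, 1.12% of OR genes were inside a control peak at the start itself and 1.12% at 20 kb upstream, with 0% to 2.81% at any position within 20 kb. Among the other coding genes 68.7% were inside a control peak at the start and 16.8% at 20 kb upstream. In the cadmium list the OR genes ranged from 0% to 2.25%, with 0.562% at the start, and the other coding genes had 65.3% at the start and 11.4% at 20 kb upstream. The 23 other coding genes that lie inside the OR clusters reached 39.1% in control and 34.8% in cadmium at or near the start.

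**Figure D3:**
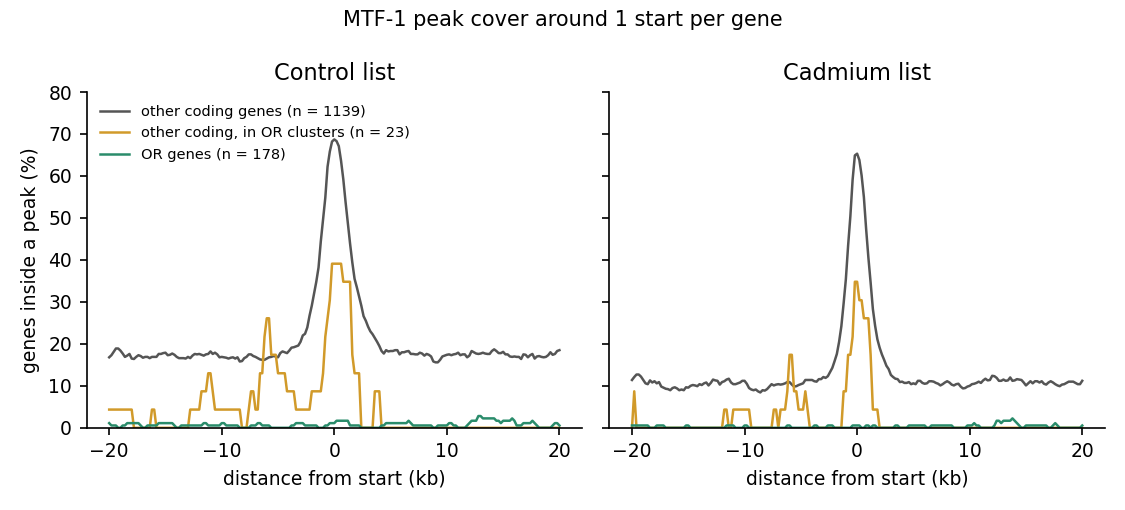
Share of genes inside a peak (y axis, percent) by distance from 1 canonical start per gene (x axis, kb, upstream to the left), control list on the left and cadmium list on the right, for the OR genes (green), other coding genes inside OR clusters (yellow) and all other coding genes (gray). The OR line stays between 0% and 2.81%, while the line of all other coding genes peaks at 68.7% and 65.3%.

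To look beyond annotated starts, a cluster was defined as a run of at least 5 OR genes with gaps of at most 500 kb, from the first gene to the last. This gave 7 clusters, here called A to G from the short-arm end of the chromosome, with 5.58 Mb of sequence and 167 of the OR genes. The other 11 OR genes lay outside and had 0 TSS peaks in either list. The clusters held 43 control peaks (7.71 per Mb, 1.46% of the bases) and 38 cadmium peaks (6.81 per Mb, 0.82%). Much of this cover lay in cluster F, 0.355 Mb long. It held 35.4 of the 81.2 kb covered in control and 26.8 of the 45.8 kb in cadmium. The rest of the chromosome, 129 Mb, held 29.2 control peaks per Mb (7.57%) and 21.9 cadmium peaks per Mb (3.63%). Peaks in the clusters were also narrower, with a median width of 1399 bp in control and 599 bp in cadmium against 1999 and 999 bp elsewhere.

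To compare sequence away from other genes, what lay within 5 kb of a start of a coding gene other than an OR gene was left out. The clusters kept 1.06% cover in control and 0.627% in cadmium. The rest of the chromosome kept 4.68% and 1.69%. Windows of 2001 bp placed every 1 kb, the width of the TSS window, gave another baseline. Inside the clusters 2.96% of 5577 windows touched a control peak and 2.1% a cadmium peak, values inside the intervals of the OR start shares, 2.25% and 1.12%. Outside the clusters and over 5 kb from other coding starts the windows gave 8.72% and 4.48%. At the precision of 178 genes, OR starts could not be told apart from the sequence of their clusters at large.

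**Figure D4:**
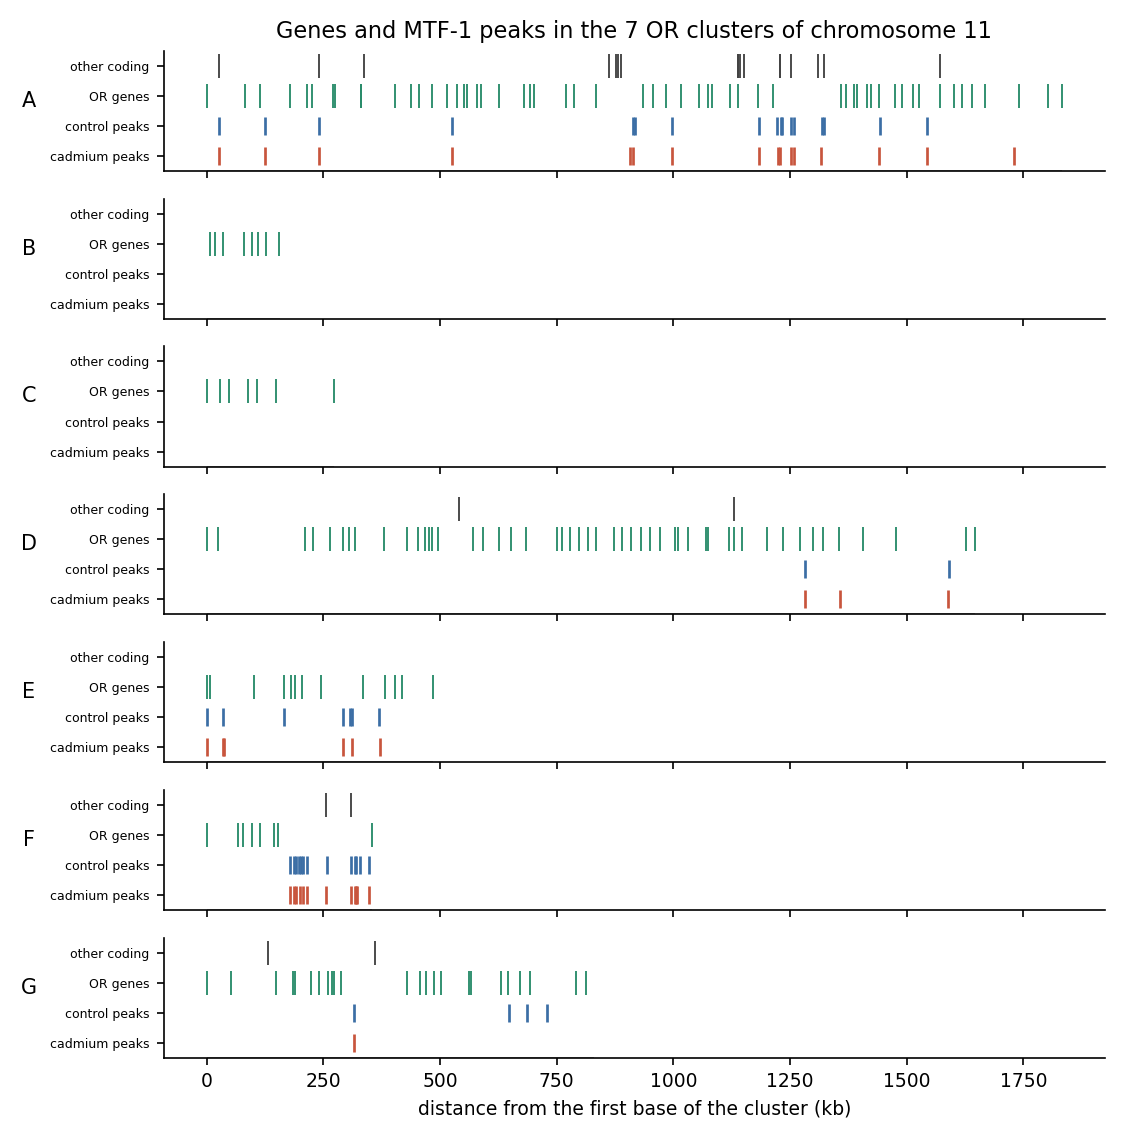
Maps of the 7 OR clusters (A to G, rows) with the distance from the first base of each cluster on the x axis (kb); black ticks are other coding genes, green ticks OR genes, blue ticks control and red ticks cadmium peaks. Clusters B and C hold no peak, cluster D holds 2 control and 3 cadmium peaks among 50 OR genes, and cluster F holds 13 and 12 peaks, away from most of its 8 OR genes.

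Cluster A, chr11:4367263-6200186, contains all 57 class I genes of the chromosome, from OR52B4 to OR52W1, with 17 other coding genes. It held 17 control and 16 cadmium peaks, 1.42% and 0.697% of its bases. The widest control peaks, 3199 bp each, lay at the starts of TRIM6 (chr11:5595801-5598999) and TRIM34 (chr11:5618801-5621999), and the widest cadmium peak, 1999 bp, at TRIM6 (chr11:5595801-5597799). The TRIM genes encode tripartite motif proteins, several of which restrict viruses. The OR gene farthest from a peak was OR52E1, 177173 bp in both lists.

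Clusters B and C held no peak in either list. Cluster B, chr11:6765626-6921994, has 8 OR genes, and its farthest, OR6A2, was 103890 bp from a peak. Cluster C, chr11:48216810-48489722, has 7 OR genes, and OR4A47 was 378194 bp from the nearest control and 378594 bp from the nearest cadmium peak. It lies within a stretch without a control peak, chr11:48110600-51097800, which holds 10 OR genes. That stretch was the longest of chromosome 11 at 2987 kb with assembly gaps counted, and the third at 2730 kb without them. OR4C13 is in that stretch, 1145410 bp from the nearest peak in both lists, the largest distance of any member.

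Cluster D, chr11:55343201-56989843, is the largest class II cluster, with 50 OR genes and 2 other coding genes. It held 2 control peaks and 3 cadmium peaks, 0.0606% and 0.0848% of its bases, none within 1 kb of an OR start. Its widest peaks were 599 bp in both lists, chr11:56932801-56933399 in control and chr11:56932601-56933199 in cadmium. The stretch chr11:54260000-56624600 held no peak of either list and 46 OR genes, and OR4A15 was 1107975 bp from the nearest peak. Together with the stretch around cluster C, 56 of the 178 OR genes lay in these peak-free stretches in each list.

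Cluster E, chr11:58023881-58508105, has 13 OR genes and no other coding gene, and it holds OR9Q1 and OR9Q2. It had 7 control and 6 cadmium peaks (2.31% and 0.907% of its bases). The widest control peak was 3999 bp, chr11:58390801-58394799, and 9.98% of it was covered in cadmium. The widest cadmium peak was 1799 bp, chr11:58058401-58060199, inside OR9Q1. OR9I1 was farthest from a control peak at 62671 bp, and OR9Q2, itself under a control peak, was farthest from a cadmium peak at 126671 bp.

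Cluster F, chr11:59358895-59713845, had the highest cover of the 7 clusters, 9.97% in control and 7.55% in cadmium, from 13 and 12 peaks. It has 8 OR genes and also contains OSBP, an oxysterol-binding protein gene, and PATL1, an mRNA decay factor gene, each with a TSS peak in both lists. The widest control peak (4799 bp, chr11:59547401-59552199) and the widest cadmium peak (6799 bp, chr11:59556201-59562999) lay in a block of long noncoding RNA genes that includes LINC02739. None of its OR genes had a TSS peak, and OR5AN1 was 172189 bp from a control and 172389 bp from a cadmium peak.

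Cluster G, chr11:123753580-124582942, has 24 OR genes, OR8B8 among them, and had 4 control peaks and 1 cadmium peak, 0.916% and 0.0481% of its bases. Its widest control peak was 2799 bp, chr11:124481001-124483799, and its cadmium peak was 399 bp, chr11:124069401-124069799. No base of 3 of the 4 control peaks was in a cadmium peak, a share of 75% with an interval of 30.1 to 95.4. The farthest OR genes were OR8G1, 160706 bp from a control peak, and OR8D2, 250398 bp from a cadmium peak.

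The peaks inside the clusters were mostly not at OR starts. Of the 43 control peaks, 4 lay within 1 kb of a start of a coding OR gene and 9 of another coding gene. A further 7 were within 1 kb of a start of a noncoding gene or pseudogene outside the OR family. The remaining 23 (53.5%) were over 1 kb from all these starts, and starts of OR pseudogenes were not counted. For the 38 cadmium peaks these counts were 2, 8, 5 and 23 (60.5%). The peaks over 1 kb from all the starts counted were narrow, with median widths of 999 bp in control and 399 bp in cadmium. At starts of other coding genes on chromosome 11 the median peak was 2999 bp wide in control and 1999 bp in cadmium.

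Peaks that share no base with the other list were called lost when in control and gained when in cadmium. In the clusters 9 of 43 control peaks were lost, 20.9% (11.4 to 35.2), against 37.1% (35.6 to 38.7) in the rest of the chromosome. Cluster F held 13 of the 43, with 1 lost. Of the 38 cadmium peaks 4 were gained, 10.5% (4.17 to 24.1), against 12.4% (11.2 to 13.7). The difference in lost peaks was not tested, and the count depends on the rule, since 46.5% of the control peaks in the clusters had under 50% of their bases in cadmium peaks. The 4 gained peaks were 1 of 199 bp, 2 of 399 bp, one of them the OR9G1 peak, and 1 of 999 bp at chr11:58061401-58062399, inside OR9Q1.

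Genes of other kinds inside the same clusters carried TSS peaks more often than the OR genes beside them. Of 23 such coding genes 10 (43.5%, 25.6 to 63.2) had one in control and 9 (39.1%, 22.2 to 59.2) in cadmium. They were not matched to the OR genes, with a median of 3 starts against 1 and a median GC content of 43.6% against 38.9%. Of the 8 TRIM genes there, TRIM21, TRIM68, TRIM6, TRIM6-TRIM34, TRIM34 and TRIM5 had one in both lists. TRIM22 had one in control, with the nearest cadmium peak at 4211 bp, and TRIM51, in cluster D, was 738681 bp from a peak in both lists. TRIM6-TRIM34 is a readthrough of TRIM6 and TRIM34, and its start lies under the TRIM6 peak, so these are not separate calls. The other called genes were OSBP, PATL1 and the unnamed ENSG00000239920, which also overlaps the TRIM6 region. None of the 5 beta-type globin genes, which lie among the OR genes of cluster A and are used by red blood cell precursors, had a TSS peak in either list.

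Other families of chromosome 11 with restricted expression gave low shares on small numbers. Of 16 MS4A genes, which encode membrane proteins of blood cells and other tissues, 0 had a TSS peak in control and 1 in cadmium, MS4A10 at 868 bp. Of 11 KRTAP5 genes, which encode keratin-associated proteins of hair, KRTAP5-5 had one in both lists and KRTAP5-8 in control alone. Of 8 MRGPR genes, which encode receptors of sensory neurons and mast cells, MRGPRF had one in both lists, MRGPRX1 in control alone and MRGPRX4 in cadmium alone. The upper ends of their control intervals, 19.4% for MS4A, 47.7% for KRTAP5 and 59.1% for MRGPR, show how little these counts fix.

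The OR genes of the other chromosomes and the OR pseudogenes, annotated with a pseudogene type, were counted in the same way. Among 238 coding OR genes elsewhere in the genome 4 (1.68%, 0.655 to 4.24) had a TSS peak in each list, but only 1 gene was the same, with 3 in control alone and 3 in cadmium alone. All 3 in cadmium alone were on chromosome 1, which has 65 OR genes. Of the 194 OR pseudogenes of chromosome 11, 5 (2.58%, 1.11 to 5.89) had one in control and 2 (1.03%, 0.283 to 3.68) in cadmium. For comparison, 73.2% of all 20033 coding genes of the genome had a control and 71.5% a cadmium TSS peak.

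Within the members, class I and class II both had few TSS peaks. Of the 57 class I genes 1 had a peak in each list, 1.75% (0.31 to 9.29). Of the 121 class II genes 3 (2.48%, 0.847 to 7.04) had one in control and 1 (0.826%, 0.146 to 4.53) in cadmium. Class I starts were nearer to peaks, with medians of 45049 bp in control and 43706 bp in cadmium, than class II starts, with 123697 and 151249 bp. All class I genes lie in 1 cluster, so that class and place on the chromosome cannot be told apart.

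The machinery that olfactory neurons use with these receptors lies elsewhere in the genome, and a list of 18 of its genes was scored the same way. Of these 8 (44.4%, 24.6 to 66.3) had a TSS peak in control and 10 (55.6%, 33.7 to 75.4) in cadmium. Called in both lists were GNAL, the olfactory G protein alpha subunit, ADCY3, the olfactory adenylyl cyclase, and CNGA4, a subunit of the olfactory cyclic nucleotide-gated channel whose gene lies at chr11:6234765-6244479, next to cluster A. The regulators EBF1, LDB1 and ATF5, the receptor transport factor REEP1 and the exchange factor RIC8B were also called in both. The channel subunit CNGB1 (4974 bp in control, 174 bp in cadmium) and the G protein subunit GNG13 (3335 and 0 bp) were called in cadmium alone. ANO2, CNGA2, LHX2, OMP, RTP1, RTP2, SLC24A4 and STOML3 were called in neither list. OMP, the olfactory marker protein gene of chromosome 11, was 2561 bp from a control and 5161 bp from a cadmium peak. Several of these genes are also used in other tissues.

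Base composition differs between the OR genes and the others, and it was set beside the calls. The 2001 bp around the canonical OR start had a median GC content of 38.9% (28.1 to 52.2) and a median of 12 CpG dinucleotides, against 56.4% and 95 for the other coding genes. In the other coding genes the share with a control peak rose with GC content, from 18.2% of 11 genes under 35% GC, through 26.4% of 53 at 35 to 40% and 30.1% of 83 at 40 to 45%, to 72.6% of 124 at 45 to 50%. In the same ranges the OR genes had 0 of 36, 1 of 65 (1.54%), 1 of 62 (1.61%) and 2 of 13 (15.4%). In the cadmium list the other coding genes had 9.09%, 22.6%, 21.7% and 66.9%, and the OR genes had 0 calls in the first 3 ranges and 2 of 13 in the last. GC content was taken at the canonical start and calls at any start. The call at 35 to 40% GC was OR8B8, whose window had 39% GC at the canonical start and 47.4% at the start that was called.

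**Figure D5:**
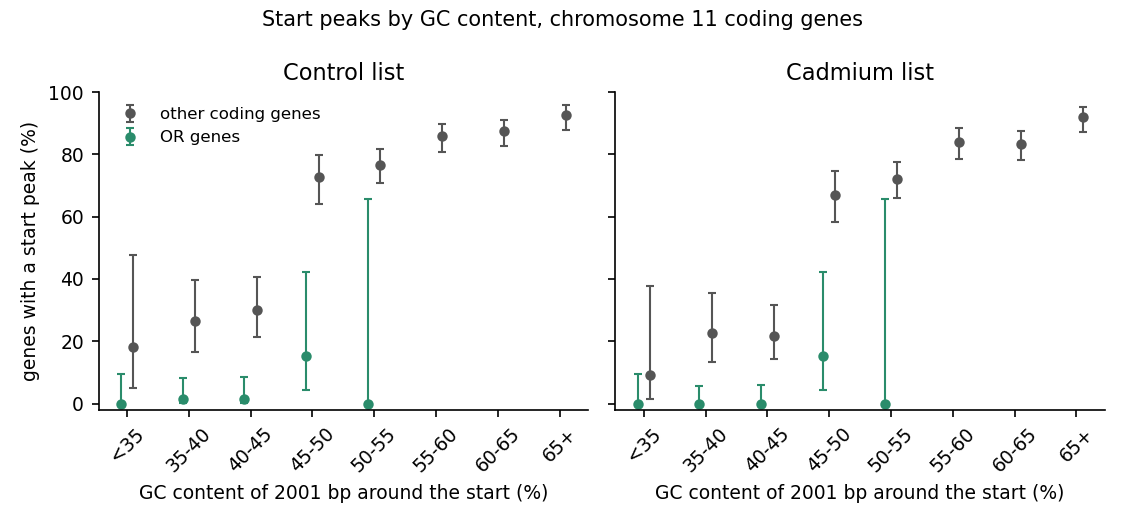
Share of genes with a TSS peak (y axis, percent) by GC content of the 2001 bp around the canonical start (x axis, ranges in percent), control list on the left and cadmium list on the right, with 95% Wilson intervals, for OR genes (green) and other coding genes (gray). At 35 to 40% GC the control shares were 1.54% for OR genes and 26.4% for the others, and at 45 to 50% they were 15.4% and 72.6%.

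The 138 other coding genes with a GC content up to that below which 90% of the OR starts lie had a TSS peak in 26.8% of cases in control and 19.6% in cadmium. Over the whole range of GC content that OR starts cover, much of it above most OR starts, 369 other coding genes had 55% and 49.9%. Among the 416 with a CpG count in the OR range the shares were 46.9% and 39.9%. That range ran up to 71, the count of OR10Q1, while the upper quartile of OR starts was 17. These 416 genes were thus not matched to most OR starts in CpG count. The low GC content of OR starts thus moved with the low share of calls, and at the same GC content the OR shares still lay lower. Under 35% GC the control intervals overlapped, 0 to 9.64% for OR genes and 5.14 to 47.7% for the others. Number of starts was not matched here, with a median of 1 for OR genes and 6 for the other coding genes. The part of base composition in the calls was not tested.

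OR genes resemble each other in sequence, and reads that match several places can be lost. All 100-base words of the window were unique in hg38 for 149 of the 178 OR starts, 4 starts had under 90% unique words, and the lowest had 85.6%. The window was taken at the canonical start, and all 4 OR genes with a control call and both with a cadmium call were among these 149, 2.68% and 1.34%. The start at which OR8B8 was called was not scored for uniqueness. The 1042 other coding genes with a fully unique window had 78.6% and 75.1%. How the authors treated reads with several matches is not given in the sources used here.

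Promoter sequences of 133 of the 178 OR genes were in the RefSeq table, 300 bases each. Their median GC content was 37% with a median of 1 CpG, and 36 (27.1%) had none. The 803 other coding promoters of chromosome 11 had 62.7% and 23. The MRE core, searched as TGCACNC and TGCGCNC on both strands, was in 6 OR promoters (4.51%), against 35.6% of the other coding promoters of chromosome 11 and 29.4% of all 27326 promoters. Its letters are mostly G and C, and OR promoters are poor in these bases. All 4 called OR genes were in the table and none of their entries had a match. The sequence of OR8B8 printed above, at the start under its peak, had 1 and is no entry of the table. The AP-1 site TGACTCA was in 4 OR promoters (3.01%), 3.74% of the others and 4.92% of all.

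The homeodomain core TAATTA, a known feature of OR promoters, was in 31 OR promoters (23.3%), against 3.11% of the other coding promoters and 4.98% of all. It is made of A and T alone, and OR promoters are rich in these bases. The EBF site, TCCC followed after 2 bases by GGGA, was in 2 OR promoters (1.5%), 1.49% of the others and 1.21% of all. The promoters of OR9Q2 and OR4C13, one with a control peak and the other over 1 Mb from any, each held 1 homeodomain core. A match of letters is a description of the window and not a binding site.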

How the data were processed

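MTF-1 CUT&RUN libraries of control and cadmium MDA-MB-231 cells, 2 per condition, were trimmed with bbduk, aligned to hg38 with Bowtie2, merged per condition with SAMtools 1.8 and called by the authors with Epic2 at default parameters (listed as SICER 0.0.50 in the submitters' processing notes). The deposited peak lists give chromosome, start and end in 200 bp bins, and a last column with 1 constant value that was not used. Starts were moved to 1-based positions. Depth per library is not in the lists, so precision is limited by the number of genes and peaks.

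Genes and TSS were from GENCODE 44. A call was any peak base within 1 kb of any transcript start. Clusters were runs of at least 5 OR genes with gaps of at most 500 kb, without assembly gaps, and a peak was put in a cluster by its centre. Unique words were 100-base words that occur once in hg38 on both strands. Wilson intervals were computed with scipy 1.17.1 under Python 3.11.15, with numpy 2.4.6 and pandas 2.3.3. The steps were tested on simulated data. Replicates were merged, so no test between conditions was made.

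Named were every OR gene with a TSS peak, the OR gene farthest from a peak and the widest peaks in each cluster, an olfactory transduction list, and the globin, KRTAP5, MS4A and MRGPR families. OR genes just beyond 1 kb or with a peak inside the gene, the other coding genes of the clusters, and the splits by GC content, uniqueness, class, number of starts and distance to the coding sequence were chosen after their values were seen. Members and lists were chosen with earlier results of these data known. The alternatives were other distances, peak centres, 1 start per gene, wider peaks, other cluster gaps and a stricter overlap. Another left out OR genes near starts of genes outside the OR family.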

Additional observations from a re-analysis of the deposited data

How the results depend on the processing

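Of 64 values under alternative settings, 46 were scored as kept and 18 as moved, and some of those kept still differed widely. The OR share in control stayed between 1.69% and 3.93%. In cadmium it was 0.562% (1 gene) at 500 bp and 3.93% (7 genes) at 5 kb, and both are among the 46. The OR share in cadmium became 0 when only peaks of at least 1000 bp counted (5 bins of 200 bp), which drops both cadmium peaks by construction, and the OR genes called in control alone then became 4. They became 1 with 1 start per gene. OR genes called in cadmium alone became 1 at 2 kb and 3 at 5 kb. For the other coding genes the control share was 79.2% at 2 kb, 83.2% at 5 kb, 64.4% by peak centre and 71.5% with 1 start per gene. Their cadmium share was 80.1% at 5 kb, 65.5% by peak centre, 68.3% with 1 start and 66.9% with peaks of at least 1000 bp. Cluster cover in control was 0.632% with gaps of at most 100 kb (10 clusters, 4.49 Mb) and 2.29% with 1000 kb (5 clusters, 8.75 Mb), and in cadmium 0.276% and 1.31%. Lost peaks in clusters became 46.5% when 50% of a peak had to be covered. Gained peaks in clusters, 10.5% in the main setting, ran from 6.67% with peaks of at least 1000 bp to 20.4% with gaps of at most 1000 kb. Both of these are among the 46. The OR shares stayed under those of the other coding genes at each distance, by peak centre, with 1 start per gene and with both limits on peak width.

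No paired analysis was possible because the replicates of each condition were merged before peak calling, and leaving out a replicate was not possible either. Peaks below the caller's threshold are not in the lists, so an OR gene without a peak is not shown to lack MTF-1. The lists give no background library, and whether the called OR starts are specific signal was not tested.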
